A study of Mus musculus with 10 samples.

Results

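Transcripts of fat cells and of the amino acid transporter Slc7a10 were examined in 5 mouse lung squamous cell carcinomas (SCC) and 5 wild-type (WT) lungs. The genes were 9 adipocyte genes, Adipoq, Plin1, Fabp4, Cfd, Cidea, Cidec, Ucp1, Pck1 and Retn, together with Slc7a10, which makes 10 genes where 19096 had a probe on the array. Each gene was read from the probe with the highest mean over all 10 arrays. Of the 10 genes, 9 had a probe, and 8 of these were well above background on at least 4 of the 5 arrays of a group. Pck1, the cytosolic enzyme that makes phosphoenolpyruvate for glycerol synthesis in fat and for gluconeogenesis in liver, had no probe matched to it and is not analysed here. Slc7a10 was picked for its large fall in SCC, and the adipocyte genes were listed with results of these arrays known. Their SCC and WT values are therefore given as a description, without a test.

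The WT group consisted of whole lungs of mice with the genotype Lkb1f/f, and the SCC group of whole lung tumors of mice with the genotype CCSPiCreLkb1f/f. Lkb1 (Stk11) encodes a tumor suppressor kinase, and both groups carried its floxed alleles. Only the SCC group carried the iCre recombinase, which is driven by the promoter of club cell secretory protein and acts in airway epithelium. All mice were labelled B6.129, were 13 months old and had received no treatment. Total RNA was hybridized to Agilent whole mouse genome arrays with 1 colour, 1 array per sample.

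Adipocytes store triglyceride in a lipid droplet, release fatty acids from it on adrenergic stimulation, and secrete hormones such as adiponectin and resistin. White adipocytes hold 1 large droplet, and brown adipocytes burn fat for heat through the uncoupling protein Ucp1. Alveolar walls contain no adipocytes, but fat lies in the mediastinum beside the heart and the large vessels, and the lung interstitium contains lipid-storing lipofibroblasts. Slc7a10 encodes Asc-1, a sodium-independent transporter of small neutral amino acids such as serine, glycine and alanine that works with the heavy chain Slc3a2. It is known as a surface marker of white adipocytes and from brain, where it carries D-serine.

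The arrays carried 43379 non-control spots for 41174 probes. Between 71.0% and 74.3% of probes were well above background on 9 arrays, and 90.2% on SCC replicate 5. SCC replicate 2 stood apart with lower squamous genes. The mean of 5 squamous markers was 11.59 log2 units there. The other tumors lay between 14.63 and 15.04, and WT at or under 4.89, and Krt5 (11.35) and Krt14 (10.40) rose. Rose and fell are written of genes that were called, with a limma adjusted p under 0.05 and a change of 2-fold or more. The female transcript Xist and the Y-linked Ddx3y were read for sex, which the labels do not give. WT replicates 2 and 3 and SCC replicate 2 had low Xist with high Ddx3y, and SCC replicate 5 had both (Xist 13.75, Ddx3y 8.34). Whether that sample held RNA of more than 1 mouse was not tested, and the Slc7a10, Adipoq and Retn differences are also given without it. WT replicates 1 to 4 shared slide 1, WT replicate 5 and SCC replicates 1 to 3 slide 2, and SCC replicates 4 and 5 slide 3.

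The sequences upstream of 4 genes are shown because these genes were lower in SCC and yet differed in their spread among the WT lungs, as described below. They come from RefSeq (GRCm38.p6), read 5′ to 3′ on the strand of the gene, and cover the 250 bases before the annotated start. Capitals mark matches, on either strand, to the C/EBP core TTGCNNAA. No match was found in these 4 windows for the AGGTCA half-site of nuclear receptors, for its direct repeat with 1 base between (AGGTCANAGGTCA, the PPAR element, which contains the half-site) or for the TATA box TATAAA.
Adipoq, chr16:23146286-23146535, plus strand: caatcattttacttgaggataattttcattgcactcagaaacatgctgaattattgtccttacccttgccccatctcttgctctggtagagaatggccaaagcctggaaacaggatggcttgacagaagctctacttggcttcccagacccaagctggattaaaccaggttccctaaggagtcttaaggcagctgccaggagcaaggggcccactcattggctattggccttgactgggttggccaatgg
Plin1, chr7:79732777-79733026, minus strand: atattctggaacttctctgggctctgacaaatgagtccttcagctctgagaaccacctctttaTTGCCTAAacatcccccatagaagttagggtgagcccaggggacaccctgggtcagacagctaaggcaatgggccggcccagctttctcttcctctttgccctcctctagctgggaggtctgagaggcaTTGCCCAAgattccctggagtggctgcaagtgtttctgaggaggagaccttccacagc
Cidec, chr6:113434765-113435014, minus strand: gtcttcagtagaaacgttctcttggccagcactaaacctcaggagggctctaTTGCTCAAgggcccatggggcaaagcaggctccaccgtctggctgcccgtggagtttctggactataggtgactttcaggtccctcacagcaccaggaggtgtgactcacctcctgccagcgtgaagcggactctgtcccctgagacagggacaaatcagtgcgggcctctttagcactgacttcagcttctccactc
Slc7a10, chr7:35186135-35186384, plus strand: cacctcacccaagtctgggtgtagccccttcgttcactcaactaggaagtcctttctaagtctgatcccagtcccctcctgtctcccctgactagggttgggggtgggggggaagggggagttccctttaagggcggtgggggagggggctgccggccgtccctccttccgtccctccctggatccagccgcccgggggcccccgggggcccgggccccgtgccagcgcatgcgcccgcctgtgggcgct

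C/EBP factors are, with PPARγ, the main transcription factors of fat cells. The C/EBP core was present 2 times upstream of Plin1, ending 180 and 51 bases before the start, and 1 time upstream of Cidec, ending 191 bases before it. The table listed a second start for Cidec, whose window held none of the motifs. Over all 32851 windows of the same length in the table, 9.56% held the C/EBP core, 14% the AGGTCA half-site, 0.0335% the direct repeat and 12.4% TATAAA. The table gave 9 windows for 8 of the 10 genes, and 3 of the 8 genes (Plin1, Cidec and Ucp1) had any match. The window of Slc7a10 was 69.6% GC, against 48.8% for Adipoq, 54% for Plin1 and 56.8% for Cidec, and the median of all windows was 52.4%.

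Slc7a10 showed an even level in all WT lungs and a low and uneven level in the tumors. Its log2 normalized signal was 13.01, 12.86, 12.92, 12.99 and 12.73 on WT replicates 1 to 5, and 8.77, 10.83, 5.02, 7.92 and 8.25 on SCC replicates 1 to 5. All SCC values lay below all WT values, with SCC replicate 2 closest to WT and SCC replicate 3 farthest from it. The group means (± SD, n = 5 each) were 12.90 ± 0.12 for WT and 8.16 ± 2.09 for SCC. They differed by -4.74 log2 units, 26.8-fold lower in SCC. Leaving out 1 array moved the difference most for SCC replicate 2 (-5.41) and SCC replicate 3 (-3.96). Without SCC replicate 5 it was -4.77, and within slide 2, which held 1 WT and 3 SCC arrays, it was -4.52. In RNA from whole tissue, fewer cells of a type and less RNA per cell cannot be told apart.

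**Figure D1:**
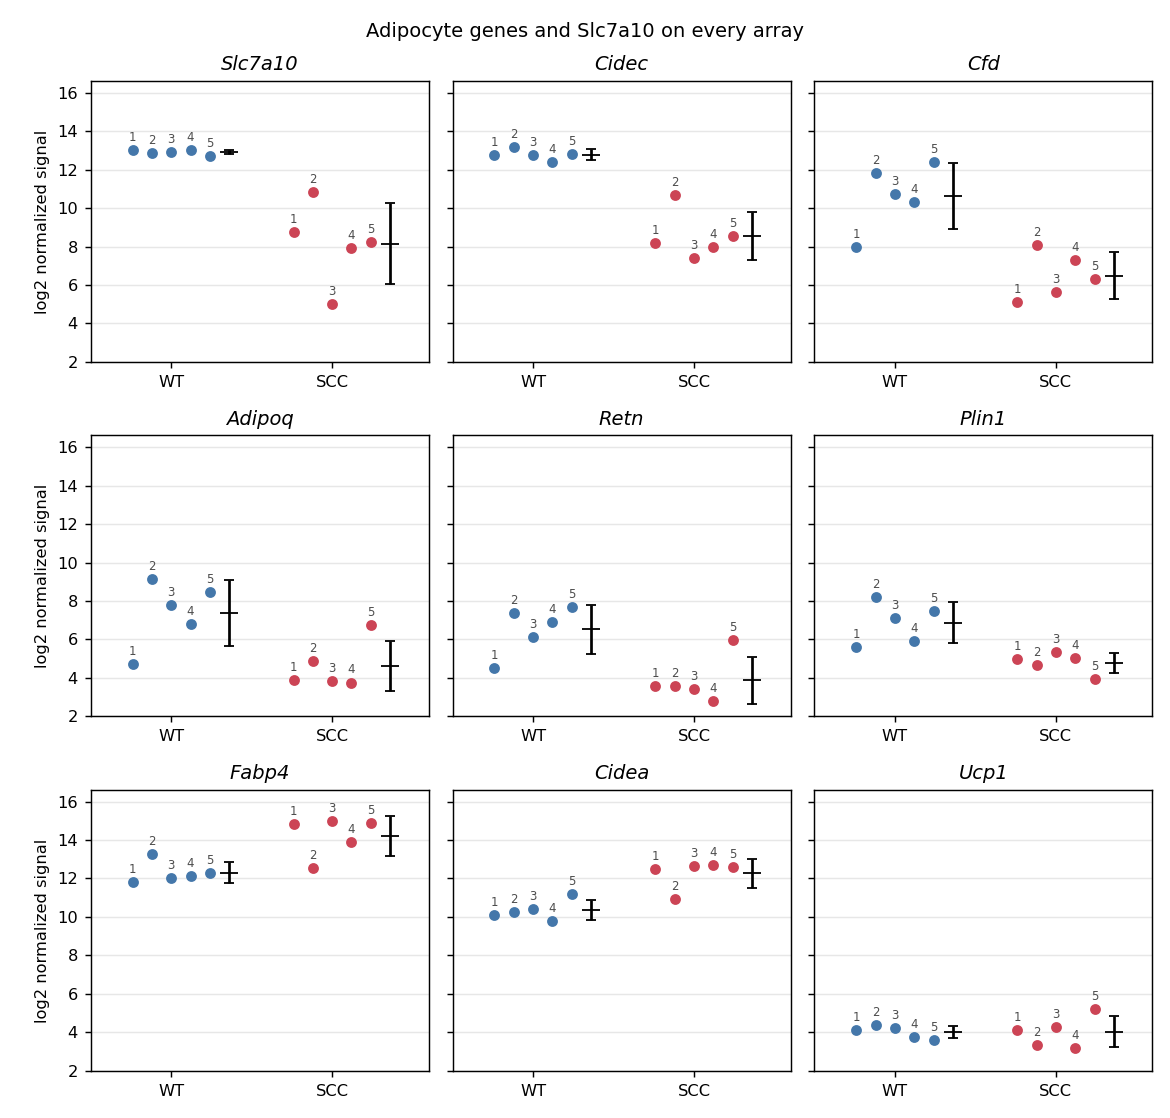
Log2 normalized signal of the 9 genes with a probe, 1 panel per gene, with 1 point per array numbered by replicate (blue WT, red SCC) and black bars for the mean ± SD of 5 arrays. Slc7a10 sat between 12.73 and 13.01 in WT and between 5.02 and 10.83 in SCC, Fabp4 and Cidea had higher means in SCC, and Ucp1 was near background in both groups.

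The 3 lipid droplet proteins did not move alike. Cidec (Fsp27), which fuses droplets into the large droplet of white fat, was at 12.77, 13.18, 12.74, 12.40 and 12.80 in WT and at 8.18, 10.69, 7.40, 7.97 and 8.53 in SCC, each in the order of the replicates. As for Slc7a10, all SCC values were lower than all WT values, and SCC replicate 2 was the highest SCC array. The WT lungs spanned 0.78 log2 units, against 0.28 for Slc7a10. The difference was -4.23, between means ± SD of 12.78 ± 0.28 for WT and 8.55 ± 1.26 for SCC (n = 5 each), and -4.05 within slide 2.

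Plin1 encodes perilipin, which coats the droplet and controls the access of lipases. It was at 5.63, 8.21, 7.13, 5.91 and 7.48 in WT and at 4.99, 4.68, 5.33, 5.02 and 3.95 in SCC. All SCC values were lower than all WT values, but WT replicate 1 was within 0.30 log2 units of SCC replicate 3, and with scaling to the 75th percentile the groups overlapped. The difference was -2.08 (means ± SD of 4.79 ± 0.52 in SCC and 6.87 ± 1.08 in WT, n = 5 each). Within slide 2 it was -2.48. It was -0.84, under 2-fold, with the normexp background correction in place of the scanner's. Normexp was run with an offset of 50 added to every signal, here and for the genes below. The part of that offset in smaller differences of dim genes was not tested.

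Cidea, the relative of Cidec best known from brown fat, went the other way. It was at 10.10, 10.24, 10.41, 9.81 and 11.19 in WT and at 12.47, 10.91, 12.63, 12.70 and 12.60 in SCC. SCC replicate 2 lay below WT replicate 5, and the other SCC arrays above all WT arrays. Its mean was higher in SCC by 1.91 log2 units (12.26 ± 0.76 against 10.35 ± 0.52, SD, n = 5 each), by 2.25 without SCC replicate 2 and by 0.82 within slide 2.

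Fabp4, the fatty acid carrier of adipocytes that macrophages and capillary endothelium also contain, was higher in SCC too. It was at 11.84, 13.26, 12.04, 12.11 and 12.31 in WT and at 14.81, 12.54, 14.98, 13.91 and 14.90 in SCC. The groups overlapped through WT replicate 2, the highest WT lung, and SCC replicate 2, the lowest tumor. The difference was 1.92 (means ± SD of 14.23 ± 1.04 in SCC and 12.31 ± 0.56 in WT, n = 5 each), and the other 2 Fabp4 probes differed by 1.90 and 2.01. The mean of 8 endothelial markers ranged from 11.28 to 12.58 in SCC and from 14.00 to 14.19 in WT, below WT on every SCC array. The mean of 8 macrophage markers was between 12.79 and 13.85 in SCC and between 13.03 and 13.50 in WT, and was above WT on the 4 SCC arrays other than replicate 2. Of the 8, Cd68 rose by 1.95 (SE 0.40, limma adjusted p 0.00295), a call lost with slide as a fixed block, and none fell. The other 7 differed by -0.75 (Marco) to 0.75 (Adgre1), with the brightest, Chil3 and Ear1, both at -0.08. Without SCC replicate 2 Adgre1 passed as well (1.05, limma adjusted p 0.000179). The part of these cells in the Fabp4 level was not tested.

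The secreted products of fat cells had low means in SCC and a wide spread in WT. Cfd (adipsin), a complement protease that fat cells secrete, was at 7.96, 11.80, 10.75, 10.31 and 12.39 in WT and at 5.14, 8.08, 5.63, 7.31 and 6.31 in SCC. WT replicate 1 lay below SCC replicate 2, and all other WT values were above all SCC values. The difference was -4.15 (means ± SD of 6.49 ± 1.20 in SCC and 10.64 ± 1.71 in WT, n = 5 each), or 17.7-fold. It was -6.10 within slide 2, -3.00 with normexp and -4.82 without WT replicate 1.

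Adipoq encodes adiponectin, the most typical adipocyte hormone. It was at 4.73, 9.14, 7.77, 6.82 and 8.49 in WT and at 3.90, 4.88, 3.82, 3.76 and 6.76 in SCC, where only replicates 2 and 5 were well above background. WT replicate 1 lay below SCC replicate 2, and SCC replicate 5 was nearly as high as WT replicate 4. The difference was -2.77 (means ± SD of 4.62 ± 1.28 in SCC and 7.39 ± 1.72 in WT, n = 5 each), -3.30 without SCC replicate 5 and -1.24 with normexp. Within slide 2 it was -4.29, since the WT array there was one of the highest.

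Retn encodes resistin, which white adipocytes secrete in mice. It was at 4.53, 7.40, 6.12, 6.92 and 7.67 in WT and at 3.57, 3.61, 3.42, 2.79 and 5.98 in SCC, well above background on SCC replicate 5 alone. WT replicate 1 was again the lowest WT lung, below SCC replicate 5. The difference was -2.65 (means ± SD of 3.87 ± 1.22 in SCC and 6.53 ± 1.26 in WT, n = 5 each), -3.18 without SCC replicate 5, and -0.76, under 2-fold, with normexp. Within slide 2 it was -4.14. A dimmer probe of Retn was well above background on all WT arrays and on no SCC array, and was at least 4.81-fold lower in SCC, as a bound in which each SCC array took its own value or, where higher, the dimmest signal that counted as well above background there.

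Ucp1, which defines brown fat, was at 4.11, 4.37, 4.21, 3.76 and 3.60 in WT and at 4.13, 3.35, 4.26, 3.21 and 5.22 in SCC. It was well above background on 1 array of each group, in SCC on replicate 5, and was not tested.

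All SCC values were below all WT values for 3 of the 8 tested genes (Slc7a10, Cidec and Plin1), as for 22.5% of the 15586 tested genes of the array, and above them for none, as for 18.9%. The genes were chosen on this contrast, so nothing is read from these counts. The count of 3 without overlap rested on single arrays. It was 6 without WT replicate 1, where Cfd, Adipoq and Retn joined, and also 6 without SCC replicates 2 and 5.

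The genes differed in their spread among the WT lungs. The SD of the 5 WT arrays was 1.72 log2 units for Adipoq, 1.71 for Cfd, 1.26 for Retn and 1.08 for Plin1, and at least 98.8% of the tested genes had an SD no larger than these. It was 0.56 for Fabp4, 0.52 for Cidea and 0.28 for Cidec, where 94.0%, 93.0% and 80.1% of the tested genes had an SD no larger. For Slc7a10 it was 0.12, below the median of 0.14 over all tested genes, with 36.5% of them no larger. WT replicate 1 was the lowest WT lung for 5 of the 7 tested adipocyte genes, namely Adipoq, Cfd, Retn, Plin1 and Fabp4, while it was the lowest for 15.3% of all tested genes. Slc7a10 was at 13.01 on that array, within 0.28 of every other WT lung. The 5 WT lungs differed 21.3-fold in Adipoq between the lowest and the highest array, and 1.22-fold in Slc7a10.

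Markers of heart muscle shared the low level on WT replicate 1, which was the lowest WT lung for 11 of 12 of them. WT replicate 2 was the highest WT lung for all 12, as for 15.2% of all tested genes. Adipoq and Plin1 were also highest there, but Cfd and Retn were highest on WT replicate 5. Among the tumors, 10 of the 12 were highest on SCC replicate 2, as were 39.2% of all tested genes and Cfd, while Adipoq and Retn were highest on SCC replicate 5 and Plin1 on SCC replicate 3. Their mean was 9.08 on WT replicate 1, 12.88 on WT replicate 2 and between 10.91 and 11.44 on the other WT arrays, and ranged from 6.31 to 9.07 in SCC. In the fit, 11 of the 12 fell in SCC, with Tnnt2, a troponin of the heart, at -3.37 (SE 0.70, limma adjusted p 0.00328) and Myl7, an atrial myosin light chain, at -1.71 (SE 0.52, limma adjusted p 0.0205). All 11 lost the call with slide as a fixed block, where Tnnt2 was at -3.23 and Myl7 at -1.85. None of the 12 was at background in WT. The mean of 8 skeletal muscle markers was also lowest on WT replicate 1 (7.64) and highest on WT replicate 2 (9.34), with SCC between 6.31 and 7.90. Of the 8 genes, only 3 were lowest on WT replicate 1, and 6 were highest on WT replicate 2. In the fit 2 fell, 1 rose and 5 were not called. Of the brightest, Myh8 fell (-4.90, a call lost with slide as a fixed block) and Tnni2 rose (1.91). Mesothelium, the lining of the lung surface, was even among the WT lungs (11.19 to 11.69) and lower in SCC (6.77 to 8.58). Msln (-2.56) and Upk3b (-7.18) fell, though Upk3b was well above background on only 3 of the 5 SCC arrays. Krt19, which other epithelia share, rose (1.15), a call lost with slide as a fixed block. Which cells the muscle transcripts came from was not tested. Whether other tissue was taken with the lungs and contributed to the fat transcripts was not tested either.

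**Figure D2:**
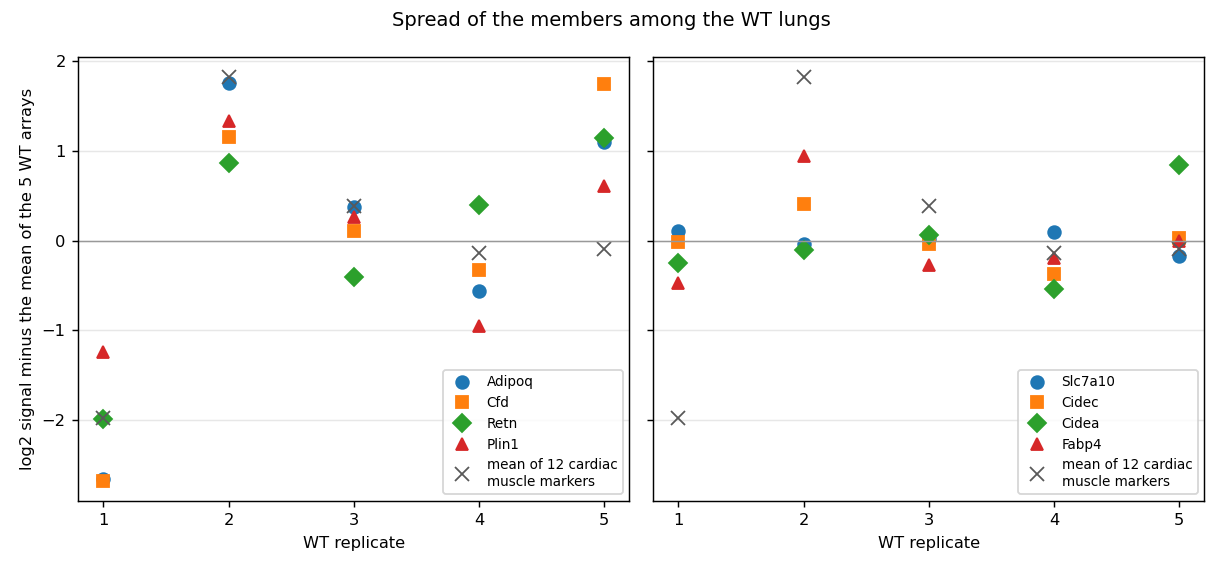
Log2 signal on each of the 5 WT arrays minus the mean of the WT arrays, for the 4 adipocyte genes with the widest spread (left) and for Slc7a10, Cidec, Cidea and Fabp4 (right), with the mean of 12 cardiac muscle markers as crosses in both panels. Adipoq, Cfd, Retn, Plin1 and the cardiac markers were lowest on replicate 1, where Slc7a10 and Cidec stayed close to their WT means.

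Likeness between genes was measured as Pearson's r of their deviations from the own group mean over the 10 arrays, which leaves out the difference between the groups. It is a description, since the arrays share slides and 2 of them stood apart. Slc7a10 was most like Cidec among the members (r = 0.85), and had r = 0.30 with Cfd, 0.14 with Adipoq, 0.04 with Retn, -0.24 with Plin1, -0.64 with Cidea and -0.66 with Fabp4. The last 2 rested on SCC replicate 2, without which they were -0.13 and -0.21, and r was 0.71 with Cidec and -0.0049 with Cfd. Adipoq was most like Retn (0.91) and Cfd (0.69), and had r = 0.42 with Plin1. Without SCC replicate 5 these were 0.87, 0.86 and 0.84. Cidec and Cidea, of the same family, had r = -0.73, which also rested on SCC replicate 2 and was 0.14 without it. Pairs of the 7 tested adipocyte genes had r from -0.73 (Cidec and Cidea) to 0.91 (Adipoq and Retn), so their mean mixes unlike genes. With that mean, each gene scaled to the same spread, Slc7a10 had r = -0.05, which placed it at rank 7067 of 15505 genes. Without SCC replicate 2 that r was 0.071, and without SCC replicate 5 it was -0.062.

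**Figure D3:**
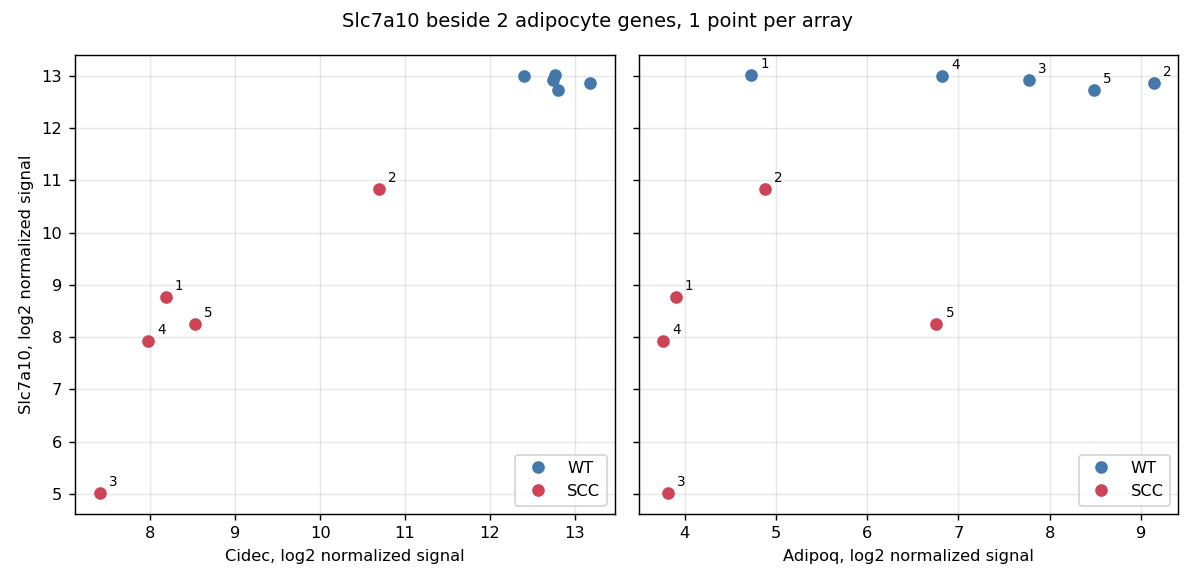
Log2 normalized signal of Slc7a10 against that of Cidec (left) and of Adipoq (right), 1 point per array (blue WT, red SCC, numbered by replicate except for WT in the left panel). Slc7a10 stayed between 12.73 and 13.01 while Adipoq ranged from 4.73 to 9.14 in WT, and in SCC both Slc7a10 and Cidec were highest on replicate 2 and lowest on replicate 3.

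Among the genes most like the mean of the adipocyte genes were Slc2a4 (r = 0.85), the insulin-responsive glucose transporter of fat and muscle, Mapkbp1 (0.85), Rbm20 (0.84), a splicing factor of heart muscle, and Ier2 (0.83). No gene reached 0.9. The genes most like Slc7a10 were Cavin2, a caveolar coat protein of endothelium (r = 0.98), Wdr73 (0.98), Icam2, an adhesion molecule of endothelium (0.98), Tnxb, a matrix glycoprotein (0.98), and Terb1 (0.98). Terb1 was well above background on only 2 of the 5 SCC arrays. All of the genes most like Slc7a10 were above Cidec, at 0.85. Of the squared deviations of Slc7a10, 99.7% lay on the SCC arrays, and of those of Cidec 95.4%, so the likeness of Slc7a10 rests on 5 tumors. Cavin2 (-3.34), Icam2 (-2.57) and Tnxb (-3.50) fell in SCC (limma adjusted p 0.000163, 4.8e-05 and 7.99e-05), and Wdr73 differed by 0.016 (limma adjusted p 0.914).

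Endothelial markers, among them Cldn5 (-2.47) and Ptprb (-3.03), fell in SCC for 8 of 8 genes, and all 8 were highest among the tumors on SCC replicate 2, the array with the highest Slc7a10. With slide as a fixed block 7 of the 8 kept the call, and Tek lost it (-2.62, limma adjusted p 0.0547). Over all genes called lower, 70.0% were highest on that tumor. Gfap, which defines astrocytes, was well above background on no WT array, and of the 6 other markers of astrocytes and Schwann cells that were tested, Slc1a2 fell (-2.38) and Aqp4 rose (3.99). Slc1a2 lost the call as the mean over all its probes (-0.63) and Aqp4 with slide as a fixed block. The 2 brightest of this list, Aldh1l1 and S100b, differed by 0.23 and 0.70 and did not pass.

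Other genes of fat cells and lipid metabolism were tested in 7 lists that hold none of the 10 genes. Of 67 listed genes, 62 were tested, and 16 of them (25.8%) fell and 5 (8.06%) rose. Of all tested genes 24.9% did so, 13.4% lower and 11.6% higher. Over probes, 3940 were called lower and 3014 higher, and with scaling to the 75th percentile 3080 lower and 3504 higher. Their median difference was -0.02, against -0.04 over all genes. Blocking on slide rests on slide 2, with its single WT array, and then 6 of the 62 were called lower, against 6.43% of all genes.

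Among adipocyte transcription factors, 2 of 11 fell and none rose. Klf15, which drives lipid and amino acid metabolism genes in fat and muscle, fell by 2.22 (SE 0.43, limma adjusted p 0.00216) and Ebf2, a regulator of brown fat identity, by 2.14 (SE 0.35, limma adjusted p 0.000822), with SCC above background on 1 array. Both lost the call with slide as a fixed block (-1.92 for Klf15 and -2.13 for Ebf2), and Ebf2 was at -0.35, under 2-fold, with normexp. Pparg, the master regulator of fat cells, averaged 11.59 ± 0.16 for WT and 11.69 ± 0.38 for SCC (SD, n = 5 each), closer than the spread between replicates (limma adjusted p 0.671), and Cebpa differed by 0.32 (limma adjusted p 0.089).

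Of 8 tested hormones and secreted proteins 2 fell. Rarres2, the chemoattractant chemerin, fell by 2.60 (SE 0.21, limma adjusted p 1.43e-05) and Apln, the peptide apelin, by 1.87 (SE 0.19, limma adjusted p 5.22e-05). Lep, the hormone leptin, was well above background on no WT array and on 1 SCC array. Lpl, the lipase that frees fatty acids from lipoproteins, differed by 1.11 and did not pass (limma adjusted p 0.125). SCC replicate 2 had Lpl at 12.46 and the other tumors 15.26 to 15.65, above all WT values, and without that array Lpl passed (1.72, limma adjusted p 3.73e-06).

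In triglyceride synthesis and lipid droplets, 3 of 12 genes fell. Fitm1, a protein of lipid droplet formation in muscle, fell by 3.28 (SE 0.72, limma adjusted p 0.00433), with 3.15 on WT replicate 1 and 5.74 to 7.55 in the other WT lungs. It was well above background on 4 WT arrays and 1 SCC array, and was at -0.66, under 2-fold, with normexp. Plin4, a droplet coat protein of white fat, fell by 2.16 (SE 0.39, limma adjusted p 0.00135), and its lowest WT values were on replicates 4 and 1 (9.90 and 9.96). Lpin1, a phosphatidate phosphatase, fell by 1.59 (SE 0.18, limma adjusted p 9.82e-05). Fitm1 and Plin4 lost the call with slide as a fixed block. Without SCC replicate 2 the droplet coat protein Plin2 (1.00) and the acyltransferase Dgat2 (1.17) passed as higher.

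In lipolysis and adrenergic signalling 2 of 7 tested genes fell, the adrenergic receptor Adrb1 (-2.73) and the lipase inhibitor G0s2 (-1.45), each with a limma adjusted p of at most 5.77e-05 and no overlap between the groups. The lipases Lipe and Mgll did not pass. Of 6 tested uptake genes, Irs1, the insulin receptor substrate, fell by 1.13 and Slc27a1, a fatty acid transporter, rose by 1.53. Cd36, a fatty acid receptor that endothelium also carries, was at -0.996 (limma adjusted p 0.000713), just under 2-fold, with no overlap between the groups, and passed with normexp (-1.02) and without WT replicate 2, 4 or 5 or SCC replicate 1, 3 or 5. Irs1 lost the call with slide as a fixed block (-0.99), with array weights (-0.99) and as the mean over all its probes (-0.66). In fatty acid synthesis Me1 and Elovl6 rose by 1.63 and 1.42, and Thrsp fell by 1.35 (SE 0.45, limma adjusted p 0.0298). Thrsp no longer passed in 6 of the 10 sets of arrays that left 1 array out, with slide as a fixed block or with the methods' t-test.

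The list of brown fat genes had 5 of 10 lower and 2 higher. Cox8b, a muscle and brown fat subunit of cytochrome c oxidase, fell by 5.26 (SE 0.73, limma adjusted p 0.000315), and Fabp3, the fatty acid carrier of heart muscle, by 3.35 (SE 0.34, limma adjusted p 5.49e-05). Both are heart genes as well, and both were lowest on WT replicate 1 and highest on WT replicate 2, at 9.38 and 11.85 for Cox8b and 11.70 and 13.77 for Fabp3. Dio2, which activates thyroid hormone, rose by 3.29 (SE 0.46, limma adjusted p 0.000306), and Gk, glycerol kinase, by 2.44 (SE 0.19, limma adjusted p 1.38e-05). Cox8b lost the call with slide as a fixed block, as did the other 3 genes that fell, Cox7a1, Ppara and Kcnk3, and Ppara was under 2-fold with normexp (-0.92). Elovl3 and Otop1, which with Ucp1 are among the most specific brown fat genes, were well above background on no array.

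**Figure D4:**
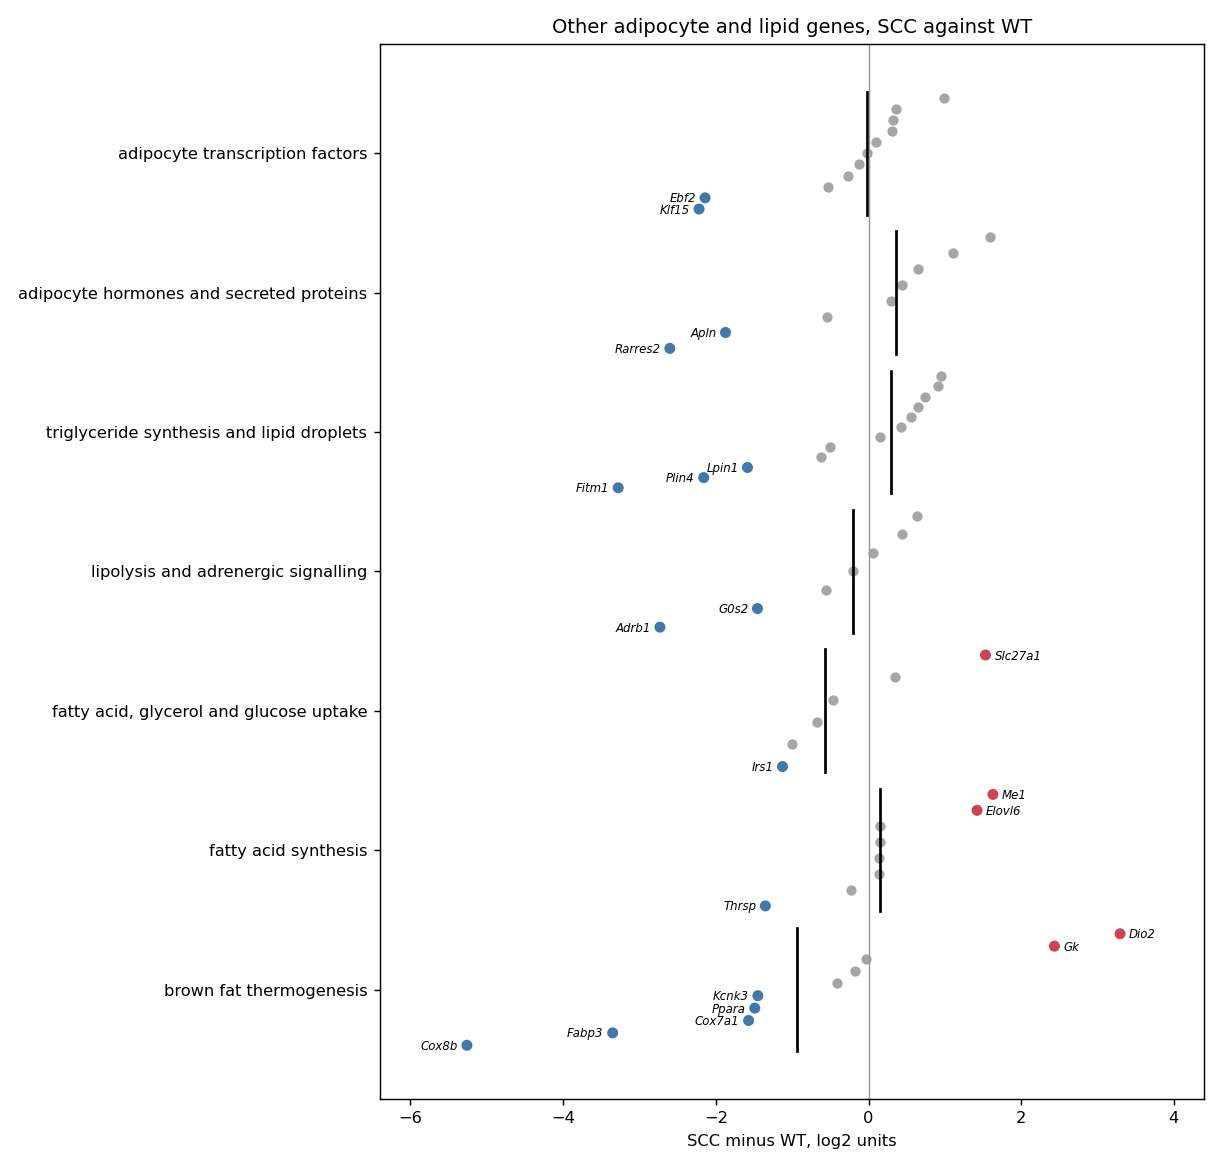
Difference between SCC and WT in log2 units for the 62 tested genes of 7 adipocyte and lipid lists that hold no member, 1 point per gene, with blue for genes called lower, red for genes called higher, grey for genes not called and a black bar for the median of the list. 16 genes lie to the left and 5 to the right of zero among those called, and the medians lie between -0.93 and 0.36.

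Of 11 tested close relatives of the adipocyte members 5 rose, 1 fell and 5 did not pass. Retnla, a resistin-like protein of macrophages and epithelium in inflamed lung, rose by 4.39 (SE 0.18, limma adjusted p 4.12e-07) while Retn was lower. Retnlb was well above background on no WT array and on all SCC arrays, at least 8.32-fold higher (limma adjusted p 8.99e-06). Among fatty acid carriers, Fabp1, known from liver and gut, fell by 4.60 (SE 0.54, limma adjusted p 0.000115), and Fabp7, known from glia, rose by 4.98 (SE 1.41, limma adjusted p 0.0155). SCC replicate 2 had Fabp7 at 3.51, below all WT values, while the other tumors had 10.19 to 11.62. Fabp2 rose by 1.30 and Cideb by 1.08, the same direction as Fabp4 and Cidea. Fabp7, Fabp2 and Cideb lost the call with slide as a fixed block, and the last 2 also with normexp (0.59 and 0.54). Cideb lost it too with array weights (0.63) and without both SCC replicates 2 and 5 (0.60). Leaving out WT replicate 3 or 5 or SCC replicate 2 or 5 alone also lost it (0.849 to 0.996).

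Among the partners and relatives of Slc7a10, 3 of 10 tested rose and 1 fell. Slc7a11, the cystine and glutamate exchanger, rose by 3.32 (SE 0.43, limma adjusted p 0.000208), Slc7a8, a light chain with overlapping neutral amino acid substrates, by 2.86 (SE 0.56, limma adjusted p 0.00233) and Slc7a5 by 1.02 (SE 0.13, limma adjusted p 0.000208). Slc1a4 (Asct1), a sodium-dependent carrier of serine and alanine, fell by 1.40 (SE 0.23, limma adjusted p 0.000747). The common heavy chain Slc3a2 was higher by 0.34, under 2-fold (SE 0.11, limma adjusted p 0.0258). SCC replicate 2 had Slc7a8 at 10.08 and the other tumors 12.69 to 13.27. Slc7a8 and Slc1a4 lost the call with slide as a fixed block, and Slc7a5 was under 2-fold with normexp (0.82), with array weights and without WT replicate 1 or 5 or SCC replicate 3 (0.936 to 0.994).

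Markers of lipofibroblasts and preadipocytes were even in WT (mean of 7 genes from 11.41 to 12.01) and lower in SCC (10.42 to 11.12), with 4 of 7 lower and 1 higher in the fit. Those that fell were Tcf21 (-3.34), Fgf10 (-2.41), Pdgfra (-2.10) and Dpp4 (-2.08), and Dlk1 rose (2.03). Tcf21, Pdgfra and Dlk1 lost the call with slide as a fixed block. Dlk1, well above background on 2 WT arrays, lost it with normexp too (0.45). The brightest 2, Cd34 and Ly6a, differed by -0.53 and 0.84, neither by 2-fold, and without SCC replicate 2 Ly6a passed (1.18, limma adjusted p 0.000518). Type 2 cell markers had none of 5 past the 2-fold threshold, though Sftpb reached -1.05 without SCC replicate 2. The mean of these 5 was between 14.20 and 14.95 in SCC and between 14.90 and 15.02 in WT, with Lamp3 at -0.81. Sftpc held the top value that quantile normalization assigns on all 5 WT arrays, so no difference is given for it.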

How the data were processed

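Groups and replicate numbers came from the sample titles. Per the labels and methods, the authors read the arrays with Agilent Feature Extraction 12. The deposited files hold processed intensity per spot, and the deposited matrix holds log2 values after quantile normalization by the authors (OmicSoft or Partek software, per the methods). The accession and flag columns deposited by the authors named probes and marked spots.

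Without control spots and spots flagged as outliers, log2 processed intensity was averaged per probe, and arrays were quantile-normalized over 41174 probes. No spot of them was saturated. A probe was tested if it was well above background (0.5 or more of its spots flagged so) on at least 4 of the 5 arrays of a group, which left 30374 probes. Group differences over all 10 arrays came from lmFit and eBayes of limma 3.58.1 (R 4.3.3), two-sided and without covariates. Their p-values were adjusted by Benjamini-Hochberg across the 30374 probes. The fit was tested on simulated data. A call needed an adjusted p below 0.05 and a 2-fold difference, under the alternatives too. The labels do not say that samples came from separate mice, so p-values measure the spread between these samples. The number of arrays limits the precision.

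Accessions were paired with symbols through RefSeq (GRCm38.p6), which named 28223 probes (68.5%). The files use another build, so coordinates are those of the RefSeq promoters alone. Members and lists were chosen with earlier results of these data known. Genes named are the members, up to 4 called genes with the largest difference per list, the 5 most like genes and the 2 brightest of each marker list. Other genes, such as Pparg, Lep and Slc3a2, were named after their values were seen. Stk11 itself is not analysed here, and some genes that the lists or the likeness would name are not reported here. Alternatives were another scaling, the deposited matrix, normexp (offset 50), other filters, a t-test, slide or replicate blocks, array weights, the mean over probes and left-out arrays.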

Additional observations from a re-analysis of the deposited data

Results flagged for a closer look

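For each member and each gene named by the rule, in each group of 5 arrays, the distance of the most extreme array from the next one was taken as a share of the whole range. Other genes, such as Lpl and Cd68, were not examined. This gap exceeded 0.71 in 16 of the 125 groups examined. Chance gives about 1 such gap in 20 groups, and genes on the same arrays are not independent.

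Among the members, Cidea was low on SCC replicate 2 (gap 0.873, 10.91 against at least 12.47 on the other tumors), and Retn was high on SCC replicate 5 (0.744, 5.98 against at most 3.61), the array with 90.2% of probes well above background. Slc7a10 and the other members gave no such gap.

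SCC replicate 2 held 9 of the 16 gaps. Besides Cidea, it was low for Dio2 (0.851), Fabp7 (0.824), Slc7a8 (0.816), Ly6a (0.871), Krt14 (0.894) and Krt5 (0.879), and high for Aldh1l1 (0.862) and Slc1a4 (0.858). The other gaps were G0s2 high on SCC replicate 5 (0.832), Elovl6 high on SCC replicate 4 (0.738), Ier2 low on WT replicate 1 (0.807), Lamp3 low on WT replicate 5 (0.718), and Krt14 (0.729) and Retnlb (0.787) high on WT replicate 4, the last below background.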

How the results depend on the processing

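The number of called probes, 6954, was 3847 with normexp, 2989 with slide as a fixed block and 14878 with the adjusted p alone, which drops the fold requirement. For normexp the cause was not tested. Slide as a fixed block also took the adipocyte and lipid genes called lower from 16 to 6, and rests on 1 WT array. Under the other settings that count was 13 to 19. Of the members, 3 had all SCC arrays below WT. The number was 2 with scaling to the 75th percentile, 4 with the mean over all probes, 6 without SCC replicates 2 and 5, and 3 to 6 with 1 array left out, the highest without WT replicate 1. The likeness of Slc7a10 to the adipocyte mean was -0.062 without SCC replicate 5 and 0.071 without SCC replicate 2. Leaving these arrays out of the likeness between pairs of members was chosen after seeing the data. Member differences moved by more than the spread between replicates with normexp for Adipoq (-1.24), Plin1 (-0.84) and Retn (-0.76), and with slide as a fixed block for Adipoq (-4.29), Cfd (-6.10), Cidea (0.82) and Retn (-4.14), always in the same direction.

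Among the genes named by the rule, differences that changed sign belonged to genes that had not passed. With scaling to the 75th percentile they were Chil3 (0.193), Ear1 (0.092) and Wdr73 (-0.015). With slide as a fixed block they were Chil3 (0.019), Ear1 (0.117), S100b (-0.29), Ly6a (-0.0020) and Rbm20 (-0.12). With array weights they were Ear1 (0.0069), Rbm20 (-0.45) and Wdr73 (-0.014), and without SCC replicates 2 and 5 Ear1 (0.077), Rbm20 (-0.31) and Wdr73 (-0.082). With 1 array left out, Ear1 ranged from -0.18 to 0.103, Rbm20 from -0.20 to 0.39 and Wdr73 from -0.056 to 0.088. Mgll, named after its value was seen, went from 0.056 to -0.071 without SCC replicate 5.

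The replicate numbers do not pair the samples, since same-numbered arrays correlated at -0.099 to 0.0093 in their deviations. With the replicate block 6571 probes were called, and 16 adipocyte and lipid genes were called lower. Dim genes (Adipoq, Retn and Ucp1 in SCC) are limited by signal over background.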
